A study of Mus musculus with 32 samples.

Results

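Insulin signalling and glucose uptake were followed through 9 genes in the mouse line 3T3-L1, whose preadipocytes fill with fat when treated with hormones. The genes were taken by symbol from the deposited expression table, and all 9 were found among its 20560 genes: Insr, Irs1, Irs2, Akt1, Akt2, Slc2a1, Slc2a4, Hk2 and Pck1. The study lowered Zbtb9, a zinc finger and BTB domain gene, with 2 short hairpin RNAs (shRNA 1 and shRNA 2) and compared the cells with cells that carry a scramble shRNA, labelled wild type, at days 0, 3, 7 and 11 of differentiation. Each day had 4 control libraries and 2 biological replicate libraries per shRNA, which makes 32 in all. Every group was grown with 10% serum and went through the same schedule. At day 0, past confluence, the cells received 1 µM dexamethasone, 0.5 mM isobutylmethylxanthine and 167 nM insulin. From day 3 the medium held 167 nM insulin alone, and from day 7 it held no addition, so the day 11 cells had been without added insulin since day 7. The labels call the cells preadipocytes at day 0, premature adipocytes at days 3 and 7 and mature adipocytes at day 11. They do not say whether a shRNA line is a clone or a pool.

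Insulin binds the receptor encoded by Insr, which phosphorylates the substrate proteins IRS1 and IRS2. These recruit PI3-kinase, which leads to activation of AKT1 and AKT2, and in fat cells AKT2 brings vesicles that carry the glucose transporter GLUT4 to the cell surface. Glucose also enters through GLUT1, hexokinase 2 traps it as glucose-6-phosphate, and in fat cells the enzyme encoded by Pck1 serves glyceroneogenesis, the making of glycerol-3-phosphate for triglyceride from precursors other than glucose.

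Libraries held 22280321 to 31073716 gene reads, rebuilt from the deposited values. The arms overlapped at days 0, 3 and 7, and at day 11 controls had 26486034 to 31073716 reads and knockdown libraries 22839423 to 25511818. Normalized reads are rebuilt reads over a size factor per library. Zbtb9, which checks the labels, stood in the knockdown libraries at 61.9%, 50.6%, 42.7% and 54.5% of control in order of day, from at most 22.3 normalized reads in any library. A two-sided exact permutation test gave p = 0.0286 for days 0 and 7, the smallest that 4 against 4 allows, 0.114 for day 3 and 0.143 for day 11. The lowest p adjusted over the 4 days was 0.0571. Of its 3482 exon bases, 84.4% are also exon of Ggnbp1 on the same strand, so its level is uncertain. At day 11 shRNA 1 replicate 2 had 19.3 normalized reads of Zbtb9, inside the control range of 12.1 to 19.96. The defining adipocyte genes followed the labels in part. Adipoq, the gene for adiponectin, had at most 2.78 normalized reads in any day 0 library, 5.31 to 10.6 in day 3 controls and 2256 to 2927 in day 11 controls, whereas Lep, the gene for leptin, did not pass 5.80 in any library. Dlk1, a preadipocyte gene, was as high in day 11 controls (90538 to 107235) as in day 0 controls (88435 to 98266).

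In control cells the 9 genes were followed over the days, between which the medium also changed. The shares of them called were near those of all genes at day 3 against day 0 and from day 7 to day 11. All differences below are on the deposited log2 scale, with the standard error of limma's fit, and a gene is called at an adjusted p under 0.05. Against day 0, 7 of the 9 were called at day 3 (6 higher, 1 lower), where 76.6% of all genes tested were called. At day 7 all 9 were called (8 higher, 1 lower), against 69.1% of all genes, and at day 11 8 were called (6 higher, 2 lower), against 64.6%. Between day 3 and day 7, 8 of 9 were called, where 74.2% of all genes were. Between day 7 and day 11, 5 of 9 were called, where 55.0% of all genes were. The median log2 difference of the 9 from day 0 was 0.30, 0.48 and 0.31 in order of day, and that of all genes was 0.00, -0.01 and 0.01. Rescaling to equal totals moved the day 3 median of all genes to -0.12, and the higher share among its calls from 50.1% to 38.6%, so day 3 differences of that size have no sure direction.

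**Figure D1:**
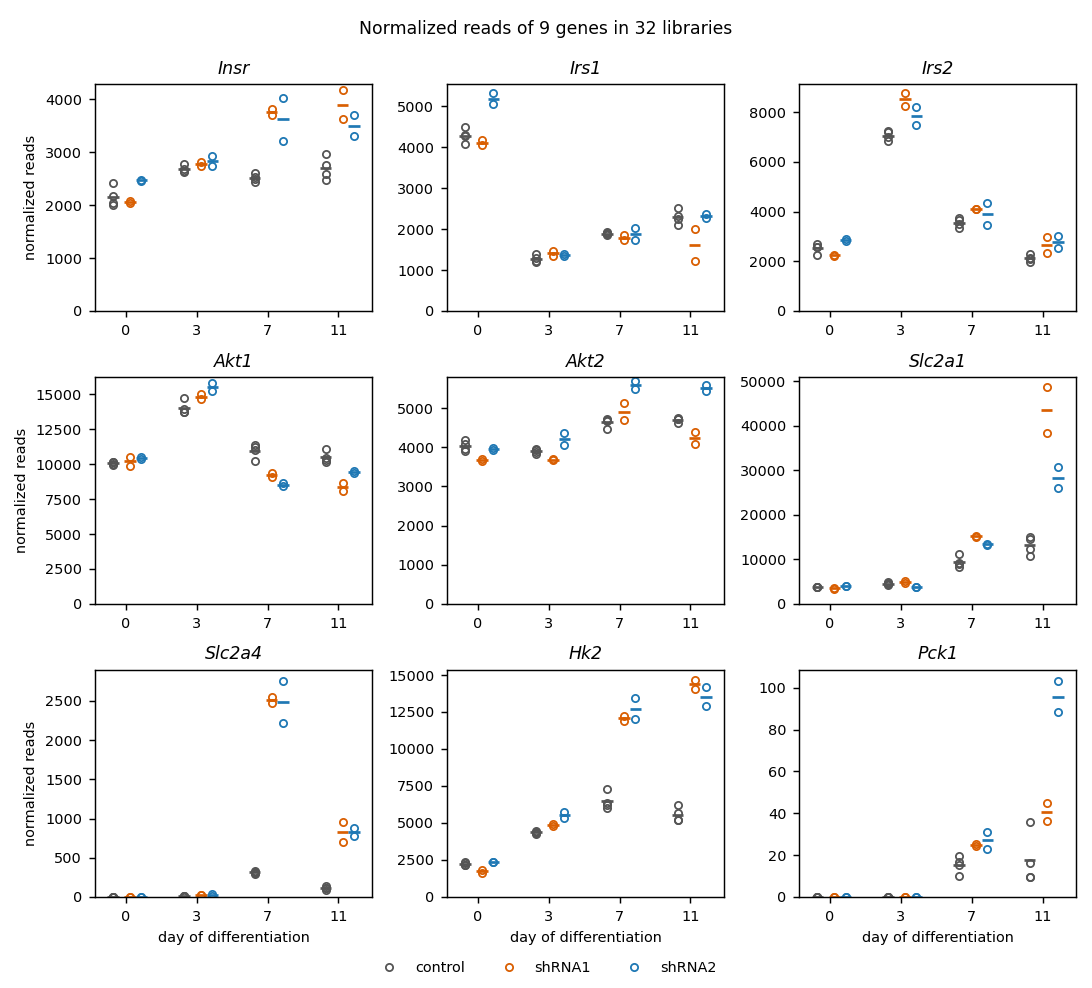
Normalized reads (vertical axis, linear, from 0) of the 9 genes by day of differentiation (horizontal axis). Each circle is 1 library (grey control, n = 4 a day, orange shRNA 1 and blue shRNA 2, n = 2 each) and each short line the mean of its group. Slc2a4 in knockdown peaks at day 7 with 2218 to 2753 normalized reads, and Slc2a1 in knockdown is highest at day 11 with 25916 to 48595.

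The receptor gene Insr (ENSMUSG00000005534, GRCm38 chromosome 8, 3122061 to 3279617, minus strand) changed little with time in control cells. Its control libraries had 2009, 2176, 2039 and 2415 normalized reads at day 0 and 2597, 2483, 2769 and 2963 at day 11, a log2 difference of 0.31 ± 0.05 (SE, adjusted p 1.25e-06). In knockdown it was not called at day 0 or 3. At day 7 controls had 2448, 2543, 2488 and 2602, shRNA 1 libraries 3708 and 3822, and shRNA 2 libraries 3221 and 4028. Each of the 4 knockdown libraries exceeded each control, and the rise was 0.53 ± 0.06 (adjusted p 4.54e-06), or 1.47-fold in mean normalized reads. At day 11 knockdown libraries had 4176 and 3628 with shRNA 1 and 3312 and 3701 with shRNA 2, again all above the controls, and the rise was 0.44 ± 0.07 (adjusted p 0.000948).

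The 2 substrate genes moved in opposite directions after induction. Irs1 (ENSMUSG00000055980, chromosome 1, 82233101 to 82291416, minus strand) had 4085, 4297, 4278 and 4499 normalized reads in day 0 controls and 1223, 1194, 1305 and 1390 in day 3 controls. It fell by 1.68 ± 0.05 on the log2 scale at day 3 (adjusted p 2.53e-26) and then recovered in part, to 2113 to 2522 at day 11, where it was still lower than at day 0 (-0.87 ± 0.05, adjusted p 1.54e-17). Irs2 (ENSMUSG00000038894, chromosome 8, 10984681 to 11008458, minus strand) had 2265, 2558, 2592 and 2701 at day 0 and 6832, 7186, 6984 and 7223 at day 3. It rose by 1.43 ± 0.05 at day 3 (adjusted p 5.96e-24), and at day 11 it was lower than at day 0 (-0.25 ± 0.05, adjusted p 1.85e-05). Per kilobase of exon, Irs1 held 54.0% ± 1.01 of the reads of the pair in day 0 controls, then 11.1% ± 0.624, 26.9% ± 1.20 and 42.9% ± 1.91 in order of day (SD, n = 4). Of the 9144 exon bases of Irs1, 30.9% overlap Gm9747 on the other strand, and 2.56% of those of Irs2 overlap 9530052E02Rik. Whether the counting used strand is not given in the sources used here, so reads of such overlaps may be shared.

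Zbtb9 knockdown went with more Irs2 and not with a called difference in Irs1. At day 3 Irs2 had 8249 and 8772 normalized reads with shRNA 1 and 7500 and 8219 with shRNA 2, all above the highest control, 7223. The rise was 0.21 ± 0.05 (adjusted p 0.00574), and the call was lost in 1 fit of all 32 libraries (adjusted p 0.0657, where alternatives spanned 7.67e-06 to 0.0836). At day 7 the difference was 0.16 ± 0.06 (adjusted p 0.0551) and shRNA 2 replicate 1 lay among the controls. Without that library it was 0.23 (adjusted p 0.00263). At day 11 shRNA 1 libraries had 2992 and 2318 and shRNA 2 libraries 2537 and 3021, above controls at 2075, 1974, 2116 and 2290, a rise of 0.34 ± 0.08 (adjusted p 0.0087). The day 11 call was lost in 1 of 19 alternatives (adjusted p 0.0731). For Irs1 the knockdown differences were 0.10 ± 0.08, 0.11 ± 0.06, -0.05 ± 0.06 and -0.26 ± 0.19 in order of day. The arms of Irs1 overlapped on each day. The wide error at day 11 came with 1 library, shRNA 1 replicate 2, at 1218 normalized reads beside 2008, 2376 and 2266 in the other knockdown libraries. In knockdown libraries Irs1 was 33.0% ± 5.26 of the pair per kilobase at day 11, with a range of 26.7% to 39.3%, and in controls 41.2% to 45.7%.

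Among the kinases, Akt1 was the more abundant transcript per length. In day 0 controls Akt1 (ENSMUSG00000001729, chromosome 12, 112653821 to 112674884, minus strand) had 2454 ± 23.9 normalized reads per kilobase and Akt2 (ENSMUSG00000004056, chromosome 7, 27591552 to 27640826, plus strand) 565 ± 16.5 (SD, n = 4). With time in control cells Akt1 rose by 0.47 ± 0.04 at day 3 (adjusted p 7.24e-14) and at day 11 it was within 0.06 ± 0.04 of day 0, not called. Akt2 was not called at day 3 (-0.05 ± 0.03) and rose by 0.20 ± 0.03 at day 7 and 0.22 ± 0.03 at day 11. The day 7 call of Akt1 against day 0 (0.12 ± 0.04, adjusted p 0.00442) did not hold after rescaling to equal totals (0.05, adjusted p 0.253, where alternatives spanned 0.000527 to 0.253), and that of Akt2 was 0.13 there.

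Akt1 was the 1 gene of the 9 that fell in knockdown. At day 7 its controls had 11226, 10219, 11346 and 10974 normalized reads, shRNA 1 libraries 9353 and 9052, and shRNA 2 libraries 8666 and 8402. All knockdown libraries were below all controls, and the fall was -0.29 ± 0.05 (adjusted p 0.000246). At day 11 controls had 11060, 10161, 10438 and 10295 and knockdown libraries 8649 and 8100 with shRNA 1 and 9508 and 9366 with shRNA 2, a fall of -0.23 ± 0.06 (adjusted p 0.0133). Without control replicate 1 the day 11 adjusted p was 0.0508, where alternatives spanned 0.000155 to 0.12. Akt2 was higher in knockdown at day 7 by 0.17 ± 0.06 (adjusted p 0.0267), but shRNA 1 replicate 2, at 4689, lay within the controls at 4723, 4473, 4704 and 4675. That call was lost without control replicate 2 or 4 or either shRNA 2 library (adjusted p up to 0.0804) and after rescaling to equal totals (0.0961). Alternatives spanned 0.00114 to 0.141. At day 11 Akt2 differed by 0.04 ± 0.09, not called. As a share of the pair per kilobase, Akt2 was 25.4% ± 2.35 in day 7 knockdown libraries, from 22.9% to 28.0%, and 19.6% ± 0.364 in controls, from 19.2% to 20.1% (SD, n = 4).

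**Figure D2:**
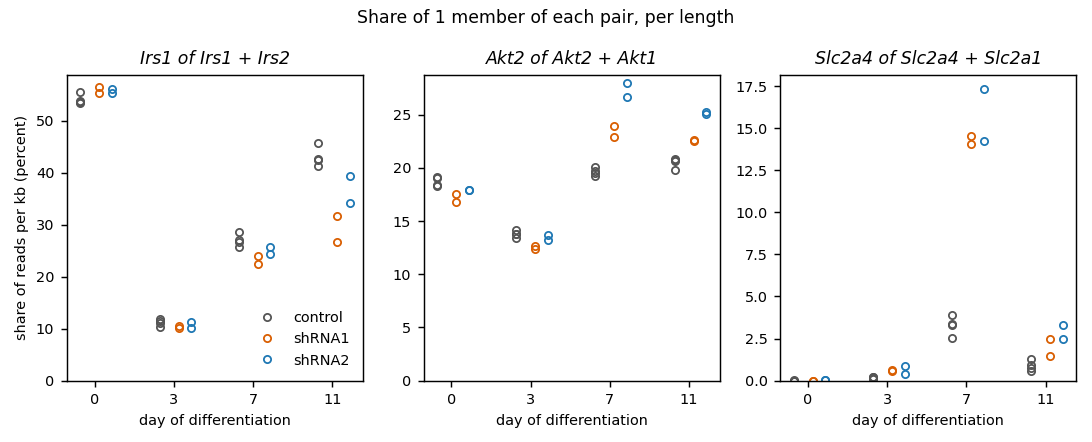
Share of 1 gene among the reads per kilobase of 2 related genes (vertical axis, percent, from 0) in each library by day: Irs1 within Irs1 and Irs2, Akt2 within Akt2 and Akt1, and Slc2a4 within Slc2a4 and Slc2a1. Grey circles are controls, orange shRNA 1 and blue shRNA 2. The Slc2a4 share in day 7 knockdown libraries, 14.05% to 17.3%, is above the controls at 2.53% to 3.88%.

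Slc2a4, the gene for GLUT4, showed the largest knockdown difference of the 9 genes at days 3, 7 and 11. The gene (ENSMUSG00000018566, chromosome 11, 69942539 to 69948188, minus strand) was at the floor at day 0, where 5 of 8 libraries had 0 reads and none had more than 2. Counts of 0 allow up to 3 reads a library. In day 3 controls it had 9.47, 3.17, 6.28 and 8.5 normalized reads, in shRNA 1 libraries 29.5 and 28.6, and in shRNA 2 libraries 15 and 31.8. No knockdown library was within the control range, and the rise was 0.79 ± 0.15 on the deposited scale (adjusted p 0.00121). The day 3 call was lost in 1 of 18 alternatives (adjusted p 0.0545). The deposited transform understates differences of genes with few reads. The day 3 means, 26.2 ± 7.62 against 6.86 ± 2.79 (SD, n = 4), differed 3.83-fold, and limma's voom on rebuilt reads gave 1.88.

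At day 7 Slc2a4 had 309, 314, 290 and 334 normalized reads in controls, 2553 and 2472 with shRNA 1 and 2218 and 2753 with shRNA 2. The ranges were far apart, and the rise was 2.84 ± 0.07 (adjusted p 8.78e-13), or 8.01-fold. Of 13299 genes tested at day 7 it had the rise ranked 7 from the top. At day 11 controls had 136, 86.0, 113 and 111, shRNA 1 libraries 954 and 702, and shRNA 2 libraries 885 and 777, a rise of 2.70 ± 0.13 (adjusted p 1.55e-07), or 7.45-fold, ranked 5 of 13281. In controls GLUT4 transcript fell by 1.38 ± 0.12 from day 7 to day 11 (adjusted p 4.28e-12), to 0.357 of the day 7 mean, and knockdown libraries were at 0.332 of theirs, a ratio that was not tested. The differences with shRNA 1 and shRNA 2 were 2.85 and 2.83 at day 7 and 2.69 and 2.71 at day 11. The 2 shRNAs share the control libraries.

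Slc2a1, the gene for GLUT1 (ENSMUSG00000028645, chromosome 4, 119108711 to 119137983, plus strand), was far more abundant per length than Slc2a4 in every group. In day 7 controls it had 2694 ± 367 normalized reads per kilobase and Slc2a4 89.7 ± 5.13, and in day 7 knockdown libraries 4070 ± 302 and 718 ± 63.7 (SD, n = 4). In control cells it rose by 1.27 ± 0.10 at day 7 and 1.72 ± 0.10 at day 11 against day 0. The day 3 call (0.26 ± 0.10, adjusted p 0.0332) did not hold in 7 of 8 fits without a single library (adjusted p up to 0.0785), all but the one without day 3 replicate 1, nor after rescaling (0.13, adjusted p 0.216, where alternatives spanned 0.0331 to 0.216). Unlike Slc2a4 it went on rising in controls after day 7, by 0.46 ± 0.10 (adjusted p 0.00179).

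In knockdown cells Slc2a1 was not called at day 0 or 3. At day 7 controls had 8942, 9212, 11296 and 8336 normalized reads, shRNA 1 libraries 15117 and 15246, and shRNA 2 libraries 13483 and 13235, a rise of 0.58 ± 0.08 (adjusted p 5.21e-05). At day 11 controls had 10681, 14520, 12307 and 14962, shRNA 1 libraries 38276 and 48595, and shRNA 2 libraries 25916 and 30822. Every knockdown library was above every control on both days, and the day 11 rise was 1.38 ± 0.19 (adjusted p 0.000792), or 2.74-fold, ranked 108 of 13281. Slc2a4 was 15.04% ± 1.54 of the pair per kilobase in day 7 knockdown libraries against 3.27% ± 0.559 in controls, and 2.42% ± 0.774 against 0.879% ± 0.290 at day 11 (SD, n = 4). A transcript of Gm12868 on the other strand overlaps 2.99% of the exon bases of Slc2a1.

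Hk2, the gene for hexokinase 2 (ENSMUSG00000000628, chromosome 6, 82725025 to 82774454, minus strand), rose in controls by 0.93, 1.47 and 1.26 (each ± 0.06) over day 0 in order of day. In knockdown it was called at day 3 with a small rise of 0.24 ± 0.05 (adjusted p 0.00374), from 4366, 4348, 4232 and 4486 normalized reads in controls to 4912 and 4791 with shRNA 1 and 5344 and 5709 with shRNA 2. The day 3 call was lost in 1 of 19 alternatives (adjusted p 0.105). At day 7 controls had 6179, 6378, 7295 and 6031, shRNA 1 libraries 12218 and 11921, and shRNA 2 libraries 12021 and 13447. The arms did not overlap at day 3, 7 or 11, and the day 7 rise was 0.91 ± 0.06 (adjusted p 1.49e-08), or 1.92-fold. At day 11 controls had 5169, 5694, 5170 and 6220 and knockdown libraries 14084 and 14666 with shRNA 1 and 12894 and 14183 with shRNA 2, a rise of 1.29 ± 0.07 (adjusted p 2.61e-07), or 2.51-fold.

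Pck1, the gene for cytosolic phosphoenolpyruvate carboxykinase (ENSMUSG00000027513, chromosome 2, 173153048 to 173159273, plus strand), had 0 reads in all 16 libraries of days 0 and 3, and was not tested there in the daily comparisons. At day 7 controls had 19.7, 10.1, 16.5 and 15 normalized reads, shRNA 1 libraries 25.4 and 24.4, and shRNA 2 libraries 23.1 and 31.2. All knockdown libraries were higher, and the rise was 0.36 ± 0.13 (adjusted p 0.0291), or 1.70-fold in mean reads. The call was lost without shRNA 1 replicate 1, shRNA 2 replicate 2 or control replicate 2 or 4 (adjusted p up to 0.0904), and alternatives spanned 0.00928 to 0.11. At day 11 controls had 35.8, 9.34, 16.2 and 9.29, shRNA 1 libraries 44.9 and 36.3, and shRNA 2 libraries 103 and 88.2. The rise was 1.07 ± 0.26 (adjusted p 0.0103), or 3.86-fold, although on the deposited scale the lowest knockdown library, at 4.16, was under the highest control, at 4.17. The day 11 call was lost in 1 of 18 alternatives (adjusted p 0.123). Voom on rebuilt reads gave 0.77 at day 7 and 1.99 at day 11.

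Over the 9 genes, knockdown against control called 0 of 8 tested at day 0, where 3.25% of all genes tested were called (2609 of all genes and 0 of the 9 had an unadjusted p under 0.05), 3 of 8 at day 3 (26.7% of all genes), 7 of 9 at day 7 (47.6%) and 7 of 9 at day 11 (33.0%). At day 3 the 3 called were Slc2a4, Hk2 and Irs2, each higher. At days 7 and 11 the calls were 6 higher and 1 lower, Akt1. The median difference of the tested genes was 0.02, 0.11, 0.36 and 0.44 in order of day. That of all genes was -0.01, 0.00, 0.01 and -0.01. Slc2a4 is among the 8 at day 0, but with at most 2 reads in any library no difference could be measured for it there. With the shRNAs as separate groups, 2 were called at day 0, Irs1 (0.10, adjusted p 0.0168) and Hk2 (-0.15, adjusted p 0.00547), and 5 at day 3. That fit also called 3340 of 13216 genes at day 0, a share near that of the members. At day 3 it called 5311 of 13139 genes, beside 5 of the 8 members tested. Without shRNA 1 replicate 2 of day 11, the library with Zbtb9 in the control range, 7 were still called at day 11.

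**Figure D3:**
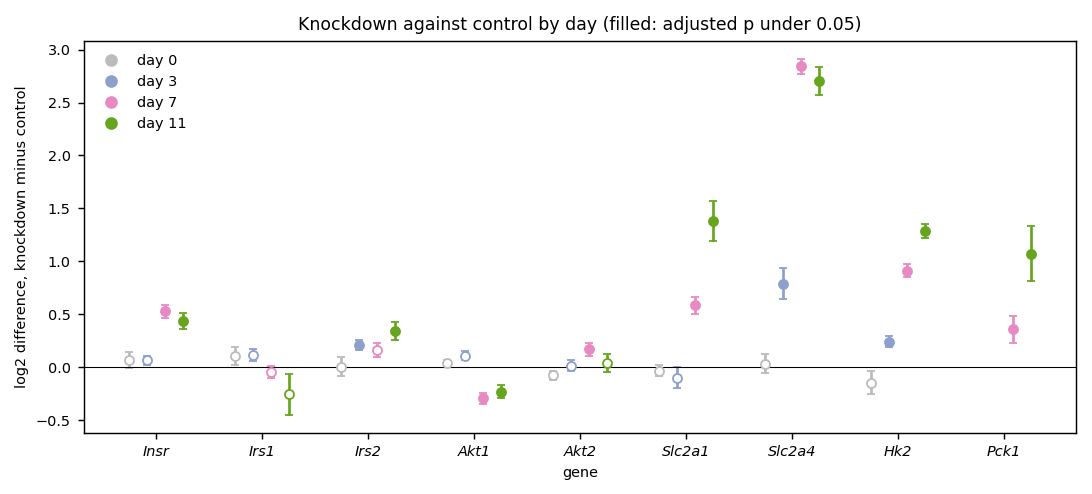
Log2 difference between knockdown and control libraries (vertical axis, 4 against 4, error bars ± 1 SE of limma's fit) for each gene on days 0, 3, 7 and 11 (grey, blue, pink and green). Filled circles are called at an adjusted p under 0.05. Slc2a4 stands at 2.84 and 2.70 on days 7 and 11, and Akt1 is the gene with filled circles below 0.

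The knockdown difference itself was compared between days over all 32 libraries, against that at day 0. Slc2a4 had at most 2 reads and Pck1 0 reads in any day 0 library, so for these genes no day 0 difference could be measured. Their calls restate the later differences already given and are no test of a change. At day 3, 2 of the 9 genes were called (6.57% of all genes), Slc2a4 and Hk2. The Hk2 call was lost in 15 of 20 alternatives (adjusted p 0.0106 to 0.0986), 12 of them fits without a single library. At day 7, 5 of 9 were called (29.9% of all genes). Apart from Slc2a4 these were Hk2, Slc2a1 and Insr upward and Akt1 downward. At day 11, 7 of 9 were called (23.2% of all genes). Apart from Slc2a4 and Pck1 these were the 4 just named, in the same directions, and Irs2 upward. The Irs2 call was lost in 10 of 20 alternatives (adjusted p 0.00728 to 0.0833). Irs1 and Akt2 were called on none of these days, and Akt2 at day 7 (0.25 ± 0.10) narrowly missed the threshold. After rescaling to equal totals the upward share of all calls went from 56.2% to 42.4% at day 3, from 56.0% to 40.7% at day 7 and from 53.6% to 40.1% at day 11, and turned the direction of none of the 9 genes' calls.

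The 2 shRNAs were also compared with each other, as 2 libraries against 2. Slc2a4, at the floor at day 0, is among the 8 genes tested there. At day 0 shRNA 2 was higher for 5 of the 8 genes tested, where 35.0% of all genes differed: Hk2 by 0.44 ± 0.05, Irs2 by 0.34 ± 0.06, Irs1 by 0.32 ± 0.05, Insr by 0.25 ± 0.06 and Slc2a1 by 0.18 ± 0.04. For Hk2 the day 0 libraries had 1802 and 1647 normalized reads with shRNA 1, 2345 and 2378 with shRNA 2 and 2150 to 2384 in controls, so that shRNA 1 lay below control and shRNA 2 within it. At day 3 the shRNAs differed for 3 of 8 (19.6% of all genes), Slc2a1 (-0.39 ± 0.05), Akt2 (0.18 ± 0.05) and Hk2 (0.18 ± 0.05). At day 7 they differed for 1 of 9, Akt2 (0.18 ± 0.06), where 16.4% of all genes differed, and after rescaling the part of those calls higher with shRNA 2 went from 45.8% to 61.9%. At day 11 they differed for 3 of 9 (22.0% of all genes): Akt2 (0.37 ± 0.06), Pck1 (0.80 ± 0.25) and Slc2a1 (-0.59 ± 0.17). Against control at day 11, Pck1 was 0.67 with shRNA 1 and 1.47 with shRNA 2, Slc2a1 1.68 and 1.09, and Akt2 -0.14 and 0.22. Leaving out 1 library leaves 1 in its group, and the spread then comes from the other groups of the fit. The day 11 calls of Pck1 and Slc2a1 did not hold without shRNA 1 replicate 2 or without either shRNA 2 library. Nor did the day 7 call of Akt2 without the same libraries of that day. The day 3 call of Akt2 did not hold without shRNA 1 replicate 1 or shRNA 2 replicate 2. Nor did that of Hk2 without replicate 2 of either shRNA. Over all alternatives the day 11 difference ran from 0.70 to 1.22 for Pck1 and from -0.76 to -0.42 for Slc2a1. That of Akt2 at day 7 ran from 0.12 to 0.24.

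Adipocyte genes moved in the same libraries. The 10 adipocyte markers summed to 19717 to 20316 normalized reads in day 0 controls and 21954 to 23542 in knockdown, 25466 to 30648 against 42099 to 55799 at day 3, 47995 to 52117 against 131116 to 202338 at day 7, and 55068 to 65074 against 114135 to 141213 at day 11. At day 0 the sum was mostly Lpl, the gene for lipoprotein lipase, with 18343 to 18862 in controls and 20577 to 22113 in knockdown. Of the 9 markers tested, 1 was called in knockdown at day 0, Lpl, and all 9 were higher at days 3, 7 and 11. Their median differences were 0.00, 0.90, 1.93 and 1.90 in order of day. At day 0 Cfd and Retn had 0 normalized reads in every library, and Adipoq, Plin1 and Cidec at most 2.78, 2.77 and 3.32. No day 0 difference could be measured for these genes, so the day 0 count and median do not bear on them. Of the 6 preadipocyte and fibroblast markers tested, 1 was lower at day 0, and 1 was higher and 1 lower at day 3. At day 7, 5 were lower and at day 11, 4. Their medians were -0.16, -0.21, -0.39 and -0.40 in order of day. Of all genes tested 3.25%, 26.7%, 47.6% and 33.0% were called in order of day, with medians of -0.01, 0.00, 0.01 and -0.01. The day 3 count of the 6 is near the share of all genes. In bulk RNA a higher share of cells of one type and more RNA per cell cannot be told apart. The part of these shifts in the results on the 9 genes was not tested. Of the defining genes of other cell types, the macrophage gene Ptprc and the muscle gene Ckm had at most 3 reads in any library, and the endothelial genes Cdh5 and Kdr at most 7 and 4. Other genes of those lists were present. The 5 macrophage markers summed to 725 to 815 normalized reads in day 0 controls and 614 to 729 in knockdown, 661 to 739 against 478 to 633 at day 3, 504 to 537 against 357 to 505 at day 7, and 720 to 831 against 902 to 1049 at day 11, mostly Cd14 and Cd68. The 4 muscle markers, chiefly Actn3, summed to 380 to 446 against 260 to 474 at day 0, 26.6 to 46.0 against 15.99 to 23.8 at day 3, 270 to 295 against 103 to 190 at day 7 and 201 to 235 against 79.5 to 159 at day 11. The 5 endothelial markers summed to 62.3 to 77.9 against 41.6 to 51.0 at day 0, 10.52 to 39.8 against 9.88 to 15.9 at day 3, 35.4 to 53.1 against 42.0 to 71.1 at day 7 and 79.9 to 100.1 against 45.7 to 74.5 at day 11. The endothelial ranges of the arms did not overlap at days 0 and 11, nor the muscle ranges at days 3, 7 and 11, nor the macrophage ranges at days 3 and 11. The part of these genes in the results was not tested either.

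**Figure D4:**
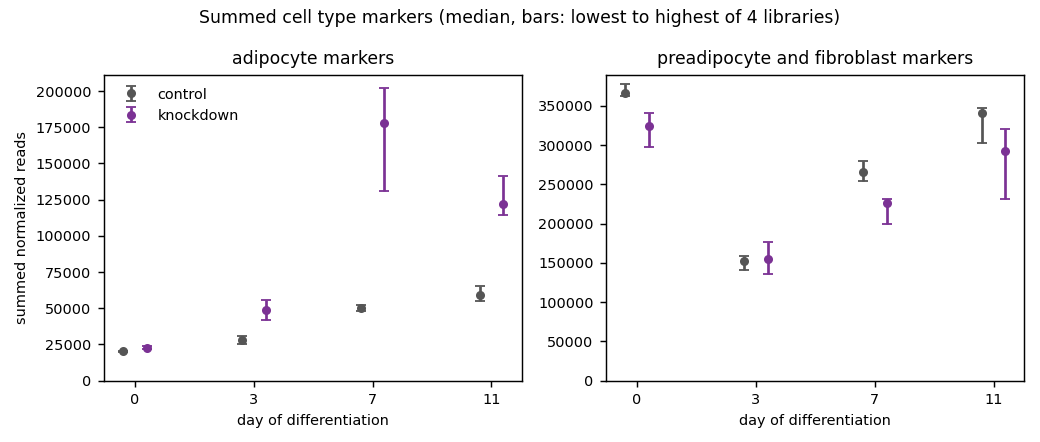
Summed normalized reads (vertical axis, from 0) of 10 adipocyte markers and 7 preadipocyte and fibroblast markers by day, for control (grey) and knockdown (purple). Points are medians and bars run from the lowest to the highest of 4 libraries. At day 7 the adipocyte sum is 131116 to 202338 in knockdown and 47995 to 52117 in control.

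Insr, Slc2a4, Slc2a1, Hk2 and Pck1 were each called higher in knockdown at days 7 and 11, and the promoters of the last 3 are shown for that reason. The 250 bases before the start site are from RefSeq's promoter table (GRCm38.p6), which held 7 of the 9 genes, all but Insr and Slc2a4, written 5′ to 3′ on the gene's strand. Capitals mark each GC box, GGGCGG on either strand, the motif read by SP1 and its relatives.
Slc2a1, chr4:119108495-119108744, plus strand: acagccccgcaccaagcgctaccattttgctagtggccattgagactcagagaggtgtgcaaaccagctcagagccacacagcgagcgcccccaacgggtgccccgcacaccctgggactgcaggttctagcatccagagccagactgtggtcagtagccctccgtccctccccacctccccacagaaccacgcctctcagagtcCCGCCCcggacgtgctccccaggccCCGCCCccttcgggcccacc
Hk2, chr6:82774455-82774704, minus strand: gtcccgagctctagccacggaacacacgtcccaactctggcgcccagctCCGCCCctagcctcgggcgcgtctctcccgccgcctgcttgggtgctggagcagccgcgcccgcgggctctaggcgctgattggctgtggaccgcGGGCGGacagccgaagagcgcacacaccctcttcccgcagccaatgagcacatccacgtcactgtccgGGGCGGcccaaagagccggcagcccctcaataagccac
Pck1, chr2:173152823-173153072, plus strand: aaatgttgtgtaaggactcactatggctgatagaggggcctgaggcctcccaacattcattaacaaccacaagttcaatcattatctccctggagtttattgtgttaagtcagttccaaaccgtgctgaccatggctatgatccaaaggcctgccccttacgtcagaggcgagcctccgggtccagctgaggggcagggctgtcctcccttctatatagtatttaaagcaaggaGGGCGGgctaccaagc

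The GC box begins at -45 and -20 from the start in Slc2a1, at -201, -106 and -38 in Hk2 and at -16 in Pck1. It is common, since 32.7% of 32851 promoters of the same length hold it. All 7 of the genes in the table hold it in at least 1 promoter, Irs1 and Akt2 included, which were called for knockdown on 0 and 1 of the 4 days. Other motifs were searched on both strands in the same windows: the cAMP response element TGACGTCA (in 1.55% of all promoters), the C/EBP motif TTGCNNAA (9.56%), the FOXO motif TGTTTAC (3.17%), the E-box CACGTG (6.02%) and the PPAR-RXR repeat of AGGTCA, any base and AGGTCA (0.0335%). No exact match to any of these is in the 3 windows, and matches with a differing letter were not searched. Of the other genes, Irs1 holds the E-box at -115 and Irs2 at -44, and of 2 Akt1 promoters the first holds the FOXO motif at -161.

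The wider pathway was counted in 8 lists, which include the members. Of all genes tested for knockdown, 47.6% were called at day 7 (3317 higher and 3011 lower of 13299) and 33.0% at day 11 (2227 higher and 2155 lower of 13281). At day 7, 3 of 10 receptor and substrate genes tested rose and 3 fell, near the 47.6% called of all genes, with a median difference of 0.06 beside 0.01 for all genes. Sh2b2, an adaptor that binds the activated receptor, rose by 1.91 ± 0.07 (adjusted p 4.15e-11), from 934 ± 26.2 to 3739 ± 405 normalized reads (SD, n = 4), and by 1.62 ± 0.07 at day 11. Gab1, a docking protein, fell by 0.20 ± 0.07 (adjusted p 0.0337) at day 7 and at day 11 stood at 0.07 ± 0.09, not called. At day 11, 5 of the 10 rose and 1 fell. At day 3, 2 rose and 2 fell, where 26.7% of all genes were called.

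In the list of PI3-kinase, AKT and downstream kinases the calls at day 7 went both ways, 9 of 26 up and 8 down (median 0.08), where 47.6% of all genes were called, and 6 and 6 at day 11 (median -0.02), where 33.0% were. All genes also divided almost evenly by direction. Pde3b, the phosphodiesterase through which insulin restrains lipolysis, rose by 1.71 ± 0.10 at day 7 and 1.69 ± 0.14 at day 11. Its control libraries had 110 ± 2.01 normalized reads at day 7 and its knockdown libraries 433 ± 52.6 (SD, n = 4). Foxo1, a transcription factor that AKT keeps out of the nucleus, rose by 0.53 ± 0.05 at day 7, and Mlst8, a subunit of both mTOR complexes, fell by 0.51 ± 0.07. At day 11 their differences were 0.63 ± 0.07 and -0.26 ± 0.07, both called. Of 15 inhibitors of insulin signalling tested, 3 rose and 4 fell at day 7 (median -0.13), and 3 rose and 2 fell at day 11 (median -0.01), near the 47.6% and 33.0% called of all genes. Trib3, a pseudokinase that binds AKT, was lower in knockdown at day 0 (-0.50 ± 0.11, adjusted p 0.0391) and rose by 0.77 ± 0.09 at day 7. Socs1, a suppressor of cytokine signalling, fell by 0.82 ± 0.11 at day 7, and Pawr fell by 0.62 ± 0.10. At day 11 their differences were -0.42 ± 0.25 and -0.31 ± 0.13, not called.

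Genes of GLUT4 vesicle traffic rose in 8 of 20 cases and fell in 3 at day 7 (median 0.07), and 6 rose and 2 fell at day 11 (median -0.03), near the 47.6% and 33.0% called of all genes. Trarg1, a protein of GLUT4 vesicles, rose by 1.65 ± 0.08 at day 7 and 1.66 ± 0.10 at day 11, with 1023 ± 73.6 against 300 ± 21.5 normalized reads at day 7 (SD, n = 4). Sort1, the sorting receptor sortilin, rose by 1.37 ± 0.10 at day 7 and was already higher at day 3 (0.88 ± 0.12). Tbc1d4, the AKT substrate that restrains GLUT4 vesicles, rose by 0.68 ± 0.07 at day 7 and 0.94 ± 0.08 at day 11. Of 7 glucose transporter genes tested, GLUT1 and GLUT4 among them, 3 rose at day 7 and 3 fell (median -0.16), where 47.6% of all genes were called. The falls were Slc2a9, a urate transporter (-0.73 ± 0.11), Slc2a13, an inositol transporter (-0.56 ± 0.14), and Slc2a10 (-0.46 ± 0.08). At day 11 they stood at -0.35 ± 0.10, -0.03 ± 0.14 (not called) and -0.25 ± 0.08, and in the list 2 rose and 2 fell (median -0.03), where 33.0% of all genes were called.

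**Figure D5:**
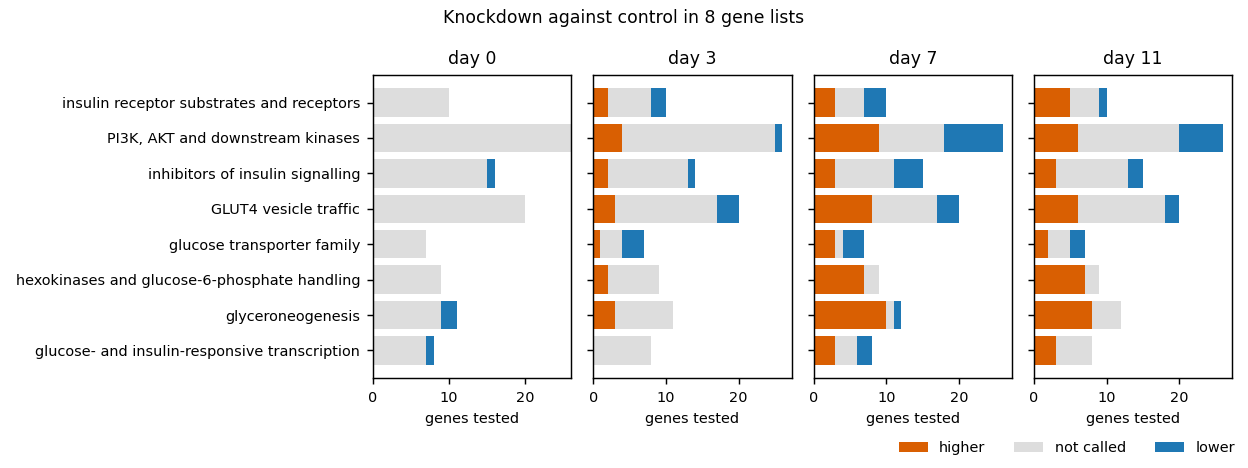
Number of genes tested (horizontal axis) in each of 8 gene lists that were higher in knockdown (orange), not called (grey) or lower (blue) at an adjusted p under 0.05, by day. The lists of glyceroneogenesis, with 10 of 12 higher, and of hexokinases and glucose-6-phosphate handling, with 7 of 9 higher, are mostly orange at day 7.

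Genes that handle glucose-6-phosphate and make glycerol-3-phosphate were mostly called in one direction. Of 9 genes of the hexokinase and glucose-6-phosphate list, 7 rose and 0 fell at both day 7 (median 0.52) and day 11 (median 0.61), where 47.6% and 33.0% of all genes were called in either direction and the medians of all genes were 0.01 and -0.01. Among them were 3 genes of glycogen synthesis at day 7: Pgm1 (0.73 ± 0.06), which makes glucose-1-phosphate, Ppp1r3c (0.72 ± 0.05), which targets protein phosphatase 1 to glycogen, and Gys1 (0.62 ± 0.07), glycogen synthase. Of 12 glyceroneogenesis genes, 10 rose and 1 fell at day 7 (median 0.56), and 8 rose and 0 fell at day 11 (median 0.34), beside the same 47.6% and 33.0% of all genes. Gpd1, which makes glycerol-3-phosphate, rose by 1.78 ± 0.31 at day 7 (adjusted p 0.00326), from 772 ± 61.5 to 3025 ± 1343 normalized reads (SD, n = 4). Slc25a10, the mitochondrial dicarboxylate carrier, rose by 1.45 ± 0.07 and Pcx, pyruvate carboxylase, by 1.09 ± 0.07. Both lists also moved in control cells, where 8 of 9 and 12 of 12 rose between day 0 and day 7, and 69.1% of all genes were called (4472 higher and 4801 lower of 13421). Of 8 genes of glucose- and insulin-responsive transcription, 3 rose and 2 fell at day 7 (median 0.12), where 47.6% of all genes were called, among them Nr1h3, the gene for the nuclear receptor LXR alpha (0.77 ± 0.08), Mlx (0.31 ± 0.06) and, downward, Arrdc4 (-0.32 ± 0.07). At day 11, 3 rose and 0 fell (median 0.15), where 33.0% of all genes were called. Nr1h3 was then 0.54 ± 0.12, and Mlx (0.20 ± 0.08) and Arrdc4 (0.06 ± 0.04) were not called.

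For 8 of the 9 genes, Akt1 not being among those compared, the genes with the most similar pattern were found by Pearson's r over 12 group means (3 arms on 4 days) among 12064 genes. The means share libraries and the common course of differentiation, and r is given as a description. For Slc2a4 they were Klf15 (0.994), Mrap (0.994) and Bckdha (0.993). For Slc2a1 they were Anp32a (0.9899), Plod2 (0.987) and Stk24 (0.985), and for Hk2 Bhlhe40 (0.993), Esyt1 (0.992) and Gtpbp2 (0.989). Pck1 was most like Apoc1 (0.984), Camk1g (0.975) and Aqp7 (0.973). Irs1 was most like Actg2 (0.984), Gata2 (0.982) and Vcl (0.980), and Irs2 like Elac2 (0.985), Med13l (0.981) and Tnfsf11 (0.979). Insr followed Gosr1 (0.986), Kctd3 (0.966) and Paip2 (0.965), and Akt2, with the lowest values of the 8, Tbcc (0.955), Iftap (0.952) and Tmem205 (0.940).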

How the data were processed

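RNA of 32 libraries was sequenced, and groups and replicate numbers come from the sample titles. Per the labels' protocols, an Illumina TruSeq RNA kit was used. TopHat2 2.1.0, Bowtie2 2.2.6, SAMtools 1.3.1 and HTSeq 0.6.1 are named in the submitters' processing notes. The genome build, the annotation and the use of strand in counting are not given in the sources used here.

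The deposited table is named normalized counts, but its values are log2, from -1.56 to 17.99, and look like a regularized log transform, which draws genes with few reads towards their mean. No header or label names that step. Inverting such a transform put 95.9% of values within 0.1 of a whole read, where chance gives 20%, and 88.0% of genes in all libraries. With simulated reads, 99.998% were rebuilt exactly over 20560 genes. Those were passed through the same fitted transform, so this checks the inversion and not which transform was used for the table. Rebuilt reads give depth, normalized reads and reads per kilobase of merged exons (GENCODE M21, GRCm38, where 20521 IDs matched). Since reads carry no molecular identifiers, the floor of 3 reads covers counting error only. Replicate pairs differed by a chi-square per degree of freedom of 3.00 to 11.8, and each library counts as 1 sample. The labels call them biological replicates. The knockdown libraries of a day come from 2 shRNAs and the controls from a scramble shRNA. The p-values rest on the spread between libraries, so they do not fully cover variation between lines.

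Limma 3.58.1 was applied to the deposited log2 values with limma-trend and robust moderation, over genes whose linear value was at least 10 in at least 4 libraries of the fit. Benjamini-Hochberg adjustment covered all genes tested. Knockdown and control were compared by day (4 against 4), the shRNAs in a 3-group fit, the time course over 16 control libraries and the change of the knockdown difference over 32. Adjusted p-values in the text are limma's. On simulated data with log2 changes of 1, limma called 97.5% to 99.0% of changed genes over the 4 days, among 13016 to 13465 genes. Of its calls, 3.43% to 7.58% were false. The simulated reads were put on a plain log2 scale, not the deposited one, with a fixed spread and no difference between the shRNAs. These rates may therefore not hold for the deposited values, least of all for genes with few reads.

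Genes named are the 9, Zbtb9, up to 3 further genes per list with the largest called change at day 7, the 3 most alike per gene (predicted genes left out), and cell type markers. One gene that this rule names is not reported here. The members and lists were chosen with earlier results of these data known. Alternatives were other filters, scaling, pseudocounts, empirical Bayes settings, fits, groupings, voom on rebuilt reads, a replicate block and leaving out single libraries.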

Additional observations from a re-analysis of the deposited data

Results flagged for a closer look

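The difference between knockdown and control was called as different from that at day 0 for 2, 5 and 7 of the 9 genes at days 3, 7 and 11, where 6.57%, 29.9% and 23.2% of all genes were called, by limma's test of the change of that difference from day 0 over all 32 libraries (log2 scale, adjusted over all genes tested). For Slc2a4 and Pck1, at no more than 2 and 0 reads in any day 0 library, the values restate the later differences and test no change. At day 3 the value was 0.76 for Slc2a4 (adjusted p 0.00545) and 0.39 for Hk2 (adjusted p 0.0412). The Slc2a4 value was not called with voom on rebuilt reads (1.302, adjusted p 0.509, where alternatives spanned 0.000403 to 0.509). The Hk2 value was lost in 15 of 20 alternatives, with 0.0106 to 0.0986 over them. At day 7 the value was 2.81 for Slc2a4, 1.06 for Hk2, 0.62 for Slc2a1, 0.46 for Insr and -0.33 for Akt1. At day 11 it was 2.67 for Slc2a4, 1.43 for Hk2, 1.42 for Slc2a1, 1.07 for Pck1, 0.37 for Insr, 0.34 for Irs2 and -0.27 for Akt1. The Pck1 value was not called with voom (1.99, adjusted p 0.0847, where alternatives spanned 1.63e-05 to 0.0847), and the Irs2 value was lost in 10 of 20 alternatives, with 0.00728 to 0.0833 over them. The ranges of the summed adipocyte markers did not overlap between the arms on any of the 4 days, at day 0 with Lpl as nearly the whole sum, and their part was not tested. Of 72 groups of 4 libraries examined, 0 had a library set apart from the rest by Dixon's criterion, where chance marks about 1 in 20.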

How the results depend on the processing

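Replicate numbers did not pair the samples. Same-numbered control libraries correlated over days at -0.09 to 0.12, with 8 of 24 best matched to their own number, and shRNA against control libraries within a day at -0.00 to 0.21. With the number as a replicate block, the 9 genes gave 0 calls at day 3 and 4 at day 11 for knockdown, 2 and 5 for the shRNAs at days 7 and 11, and 1 for the day 3 change of the knockdown difference. All genes then gave 0, 845, 4112 and 1652 calls for knockdown in order of day. With the shRNAs as separate groups, 2 and 5 of the 9 were called for knockdown at days 0 and 3, and 3340 and 5311 of all genes. Without the trend 225 genes were called at day 0. With no filter the shRNAs gave 1710 genes at day 3 and 0 of the 9 at day 7, and the day 3 change of the knockdown difference gave 1 of the 9, as it did on rescaling and with voom. The cause was not tested. Leaving out single libraries gave 111 to 562 genes for knockdown at day 0. For the shRNAs it gave 1633 to 2329 genes at day 3, 1003 to 1492 genes and 0 to 2 of the 9 at day 7, and 1479 to 2928 genes and 1 to 5 of the 9 at day 11. For the day 3 change of the knockdown difference it gave 1 to 2 of the 9. Every other count of calls stayed within 1.5 times. Fits of the shRNAs without 1 library leave 1 in its group, and the spread then comes from the other groups. Of 1648 alternative values for 105 differences of the 9 genes, 12 changed sign, none of them called. For knockdown these were Slc2a4 at day 0 (block, -0.00273) and Akt2 at day 3 (block, -0.0037), and, over fits without 1 library, Slc2a1 (-0.0672 to 0.000855) and Irs2 (-0.057 to 0.0649) at day 0 and Akt2 at day 3 (-0.0349 to 0.0449) and day 11 (-0.0289 to 0.116). In control cells it was Pck1, at day 3 on rescaling (-0.0913) and from day 7 to day 11 without 1 library (-0.155 to 0.142). Genes with few reads, Pck1 and day 0 and 3 Slc2a4, are limited by depth.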
